A study of Rattus norvegicus with 16 samples.

Results

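The microRNAs (miRNAs) rno-miR-192, rno-miR-194 and rno-miR-215, were followed through rat kidney and blood plasma after an iodinated contrast medium. They were chosen by name, as the 3 entries of the array with exactly these names, out of 350 rat miRNAs. Each was read by 2 probes and 20 spots on every array.

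Male Sprague-Dawley rats, 24 in all, were kept without water for 3 days and then received furosemide, a diuretic, at 10 mg/kg into the muscle. The contrast-induced acute kidney injury (CI-AKI) rats then received Omnipaque, a non-ionic contrast medium with 350 mg iodine per ml, at 10 ml/kg into the tail vein. Control rats received the same volume of saline, so water deprivation and furosemide were common to all 4 groups. Kidney and blood were taken 8 h later. RNA of 3 rats was pooled for each array, which gave 4 pools each of CI-AKI kidney, control kidney, CI-AKI plasma and control plasma, or 16 one-colour Agilent arrays. Pools of 1 tissue came from separate rats, so errors given here describe how averages of 3 animals vary, and differences between single rats are not visible.

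MiRNAs are short RNAs that lower the output of mRNAs, which they recognise mainly through the seed near their 5′ end. MiR-194 is made from a pair of gene copies, one beside the gene of miR-192 and the other beside that of miR-215. Neighbouring miRNA genes are often made as a single transcript, so both clusters can supply the same mature miR-194. MiR-192, miR-194 and miR-215 are known from epithelia of kidney, gut and liver, and in human cells the tumour suppressor p53 raises their transcription. In mouse kidney cells miR-192 is known to lower ZEB2, a transcription factor that represses epithelial genes.

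The mature sequences are shown first because they set which members can share targets. They are RefSeq's, from the rat build GRCr8, written 5′ to 3′ with the seed (bases 2 to 8) in capitals. The array names carry no arm, and for miR-192 and miR-194 the RefSeq entry of the 5p arm is given.
miR-192: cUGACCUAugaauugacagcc
miR-215: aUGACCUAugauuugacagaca
miR-194: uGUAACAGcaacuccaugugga
MiR-192 and miR-215 carried the same seed, UGACCUA, and no other of 693 RefSeq rat mature miRNA names had it. MiR-194 alone carried GUAACAG. Aligned from the 5′ end, miR-192 and miR-215 had 18 of 21 bases in common. They differed by C1A, A12U and C20A, counted from 1 at the 5′ end with the base of miR-192 first, and miR-215 was 1 base longer.

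The hairpin precursors are shown because the same mature miR-194 lies in both of its copies, so the array cannot tell which cluster its signal came from. Capitals mark the mature miRNA.
Mir194-2: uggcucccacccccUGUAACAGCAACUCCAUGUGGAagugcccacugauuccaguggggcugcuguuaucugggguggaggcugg
Mir192: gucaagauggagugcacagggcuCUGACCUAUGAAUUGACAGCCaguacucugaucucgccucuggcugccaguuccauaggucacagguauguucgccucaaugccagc
Mir194-1: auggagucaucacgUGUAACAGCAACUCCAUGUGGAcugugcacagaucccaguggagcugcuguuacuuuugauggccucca
Mir215: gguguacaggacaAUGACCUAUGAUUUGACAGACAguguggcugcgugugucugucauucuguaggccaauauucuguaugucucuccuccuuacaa
On the plus strand of GRCr8, Mir194-2 lay at chr1:212994024-212994108 and Mir192 at chr1:212994209-212994318, with 100 bases between them. Mir194-1 lay at chr13:99382716-99382798 and Mir215 at chr13:99382990-99383086, with 191 bases between them.

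The 8 kidney arrays detected 169 to 216 miRNAs each and 6 plasma arrays 156 to 211. The plasma pool 4 arrays of both treatments stood apart with 95 detected miRNAs for CI-AKI and 84 for control, and results that rest on them are given without them too. Of the other 6 plasma arrays CI-AKI pool 1 was the weakest. Its total processed signal was 19798, against 46701 to 96981 on the rest of these 6. Kidney arrays lay on one slide and plasma arrays on another, so tissue and slide cannot be told apart, nor can treatment and slide column. The tissue labels were checked against marker miRNAs. Of 12 kidney epithelial miRNAs, 11 were detected on all 8 kidney arrays and 5 on all 8 plasma arrays. Of all 350 miRNAs, 163 were detected on all 8 kidney arrays and 74 on all 8 plasma arrays. This fall is alike, so the lower epithelial count in plasma is by itself no check of the labels. The liver miRNA miR-122 was detected on 0 kidney and 8 plasma arrays. Samples also carry a letter code of unstated meaning, and 6 of the 8 letters have opposite treatment labels in kidney and plasma. Groups here follow the sample titles.

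In kidney, miR-192 and miR-194 were read on every array and miR-215 on none. In plasma, miR-192 and miR-215 were read on every array and miR-194 on 4 of 8. MiR-194 was thus detected beside miR-192 but without miR-215 on 8 of 8 kidney arrays, and beside both on 4 of 8 plasma arrays. Probes of different miRNAs differ in brightness per molecule, so each miRNA is compared only with itself, or through a ratio compared between groups.

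Values for the tissue comparison are scaled array signals. The processed signal of an array was scaled to its 75th percentile, taken over the 65 miRNAs that all 16 arrays detected, then put back on the common signal scale. Values under a floor of 1.31 were set to it before the log2 was taken.

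MiR-192 read 724, 687, 784 and 707 in pools 1 to 4 of CI-AKI kidney, against 214, 605, 389 and 286 in CI-AKI plasma. Under saline it read 699, 734, 782 and 794 in kidney, against 492, 547, 485 and 391 in plasma. Every kidney pool read higher than every plasma pool, and the plasma pools of the CI-AKI rats were the most spread. The kidney groups overlapped, at 725 ± 41.8 for CI-AKI and 752 ± 43.7 for control, as did the plasma groups, at 373 ± 170 and 479 ± 64.5 (SD, n = 4 each). The order of the means was thus control kidney, CI-AKI kidney, control plasma and CI-AKI plasma, with a gap between the pools only where the tissues meet.

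MiR-194 read 227, 173, 201 and 174 in CI-AKI kidney, against 13.4 and 6.37 in the 2 CI-AKI plasma pools that detected it, pools 2 and 3. Under saline it read 183, 197, 185 and 200 in kidney, against 5.67 and 8.22 in pools 2 and 3 of plasma. All 20 spots stood above background on each kidney array, and 0 to 14 of 20 did so on the plasma arrays. CI-AKI plasma pool 3, called detected, had 1 such spot, and control plasma pool 4, called undetected, had 2. The detection calls of miR-194 in plasma thus lie near the limit. Kidney and plasma did not overlap, the kidney groups overlapped with each other, and plasma pools 1 and 4 of both treatments have only an upper limit.

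MiR-215 read 199.7, 259, 450 and 790 in CI-AKI plasma and 754, 925, 487 and 765 in control plasma. On the kidney arrays it was not detected in any pool of either treatment. Its raw kidney signal was 0.692 to 2.65 before scaling. All 8 of these arrays detected miR-192, with which miR-215 shares 18 bases. How much of the plasma miR-192 signal its probes owe to miR-215 was not tested. The log2 ratio of the 2 miR-192 probes averaged −0.64 in CI-AKI kidney and −0.68 in CI-AKI plasma, and −0.60 in control kidney and −0.87 in control plasma.

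**Figure D1:**
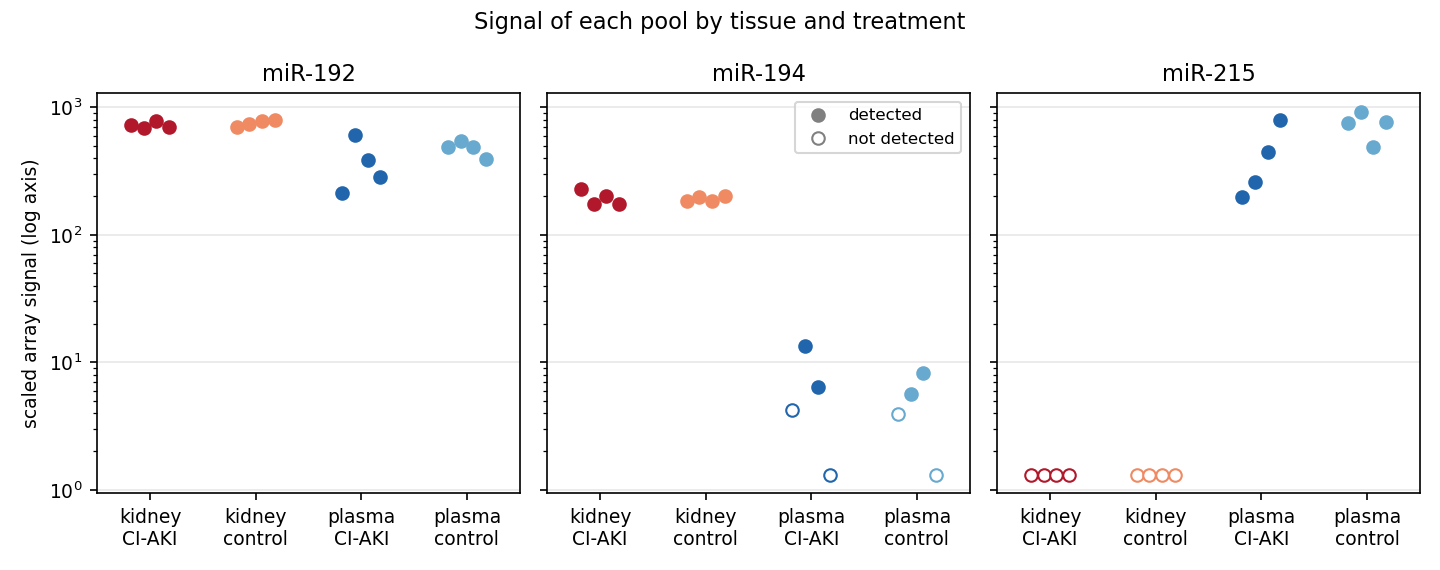
Scaled signal of miR-192, miR-194 and miR-215 on a log axis, one point per pool, in 4 groups from left to right: CI-AKI kidney, control kidney, CI-AKI plasma and control plasma. Filled points are detected and open points not detected. MiR-192 is detected throughout, miR-194 lies at 173 to 227 in kidney and at most 13.4 in plasma, and miR-215 lies at the floor in kidney and at 199.7 to 925 in plasma.

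The tissue differences were tested with limma across all miRNAs detected in every pool of at least 1 compared group. Between CI-AKI kidney and CI-AKI plasma 135 of 181 miRNAs passed an adjusted p of 0.05 (74.6%), and between control kidney and control plasma 138 of 178 (77.5%). All 3 members passed in both comparisons, against a background in which most miRNAs did so. MiR-192 was measured in every pool. MiR-194 entered the test through kidney and miR-215 through plasma, the tissue where each was high, so their passing is no support beyond their detection. Among all tested, 28.2% passed as higher and 46.4% as lower in kidney for CI-AKI rats, and 33.1% as higher and 44.4% as lower for control rats. The pools of the 2 tissues did not overlap for any member in either treatment, and for 71.8% of all tested miRNAs in CI-AKI and 78.7% in control rats.

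MiR-194 was 5.37 higher in kidney on the log2 scale after contrast medium (SE 0.59, limma adjusted p = 2.1e-05) and 5.60 higher under saline (SE 0.51, limma adjusted p = 1.55e-05). In these fits undetected plasma pools kept their low signal or took the floor, which the weak arrays could not have detected. The log2 difference was 3.91 for CI-AKI and 4.34 for control rats with each array's detection limit as its floor. With each undetected pool set at its array's own limit, miR-194 was 15.1-fold higher in CI-AKI kidney and 20.3-fold higher in control kidney than in plasma. Over the detecting plasma pools alone the ratios were 20.8 and 28.0. With normexp background correction the difference no longer passed, at 0.15 for CI-AKI and 1.20 for control rats (limma adjusted p = 0.871 and 0.149). That setting adds 50 to each spot, while the raw plasma signal of miR-194 was at most 18.9.

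MiR-215 was lower in kidney, where every pool took the floor, so the difference is a bound. It was at least 282-fold lower in CI-AKI kidney (log2 difference −8.14, limma adjusted p = 1.02e-07) and at least 547-fold lower in control kidney (−9.095, limma adjusted p = 4.69e-09). The p-values rest on the plasma pools, since the kidney values had no spread. With, per kidney array, the higher of its lowest detected signal and the measured one in place of the common floor, the folds were 341 and 672. The measured scaled signal was 0.912 ± 0.208 in CI-AKI kidney and 425 ± 266 in CI-AKI plasma, and 0.828 ± 0.345 in control kidney and 733 ± 181 in control plasma (SD, n = 4 each).

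MiR-192 was the one member measured on both sides throughout. It was 1.07 higher in kidney after contrast medium (SE 0.31, limma adjusted p = 0.0107) and 0.66 higher under saline (SE 0.13, limma adjusted p = 0.00206), at rank 15 from the highest of 84 and rank 18 of 66 miRNAs detected in every pool compared. The median of these was −1.08 and −0.78, and over all tested miRNAs −0.59 and −0.40. The call was lost with normexp, at 0.33 and 0.49 (limma adjusted p = 0.380 and 0.0841), and for control rats also without scaling, at 2.69 (adjusted p = 0.0906). Without the plasma pool 4 arrays all 3 members still passed, at 1.12 after contrast medium and 0.88 under saline for miR-192, 4.91 and 5.39 for miR-194, and −7.71 and −8.91 for miR-215. Both probes of each member had the same sign in both treatments. They gave 1.09 and 1.05 for miR-192, 5.34 and 5.22 for miR-194 and −8.16 and −8.01 for miR-215 after contrast medium.

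**Figure D2:**
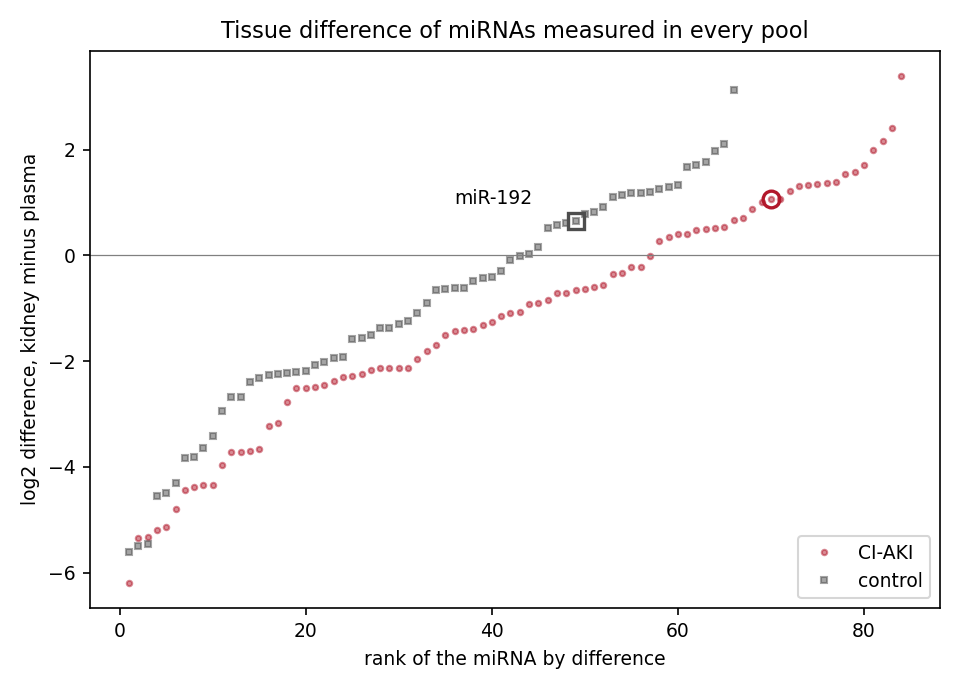
Log2 difference in scaled signal, kidney minus plasma, of the miRNAs detected in every pool compared (vertical axis), ordered from lowest to highest (horizontal axis), 84 for CI-AKI rats (red circles) and 66 for control rats (grey squares). Large open symbols mark miR-192, at 1.07 and 0.66, in the upper part of both curves. MiR-194 and miR-215 are not plotted, since floor values have no order.

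Where both miRNAs are detected, their ratio on 1 array does not depend on dividing the array by a percentile. An undetected member kept its low signal or, if that lay under the floor, took the floor. The ratios were compared between groups over pools with exact permutation tests. In all, 11 comparisons were made, 3 ratios between the tissues with all pools and within each treatment, and 2 between treatments.

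The log2 ratio of miR-192 to its chromosome 1 partner miR-194 was 1.67, 1.99, 1.96 and 2.02 in CI-AKI kidney and 1.93, 1.89, 2.08 and 1.99 in control kidney. It was narrow in the organ, 1.94 ± 0.12 over 8 kidney arrays, against 6.57 ± 1.01 over 8 plasma arrays (SD, n = 8 each). In these plasma ratios undetected miR-194 kept its low signal in pool 1 of both treatments and took the floor in pool 4 of both. The difference was −4.63, lower in 8 of 8 kidney pools (exact permutation test, two-sided, p = 0.000155, the smallest these labellings can give; 0.00057 adjusted over the 11). Within each treatment the smallest possible p of 0.0286 was reached (exact permutation test, adjusted p = 0.0349). In control rats same-numbered kidney and plasma pools deviated together, and as 4 pairs they cannot give a p under 0.125, the value found for each ratio (exact permutation test, adjusted p = 0.153). On the 4 plasma arrays that detected both, the ratio was 5.50 to 6.59. With the other 4 at their limits, the lowest plasma value was 2.90 and the highest kidney value 2.08, so the groups stayed apart. With each array's detection limit as its floor the difference was −3.26. With normexp it was −0.27 (exact permutation test, p = 0.639).

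The log2 ratio of miR-215 to its chromosome 13 partner miR-194 averaged −7.20 in kidney and 6.91 in plasma, a difference of −14.1 over 8 pools each (exact permutation test, p = 0.000155, adjusted 0.00057). Both sides rest in part on floor values, miR-215 in kidney and miR-194 in plasma, so only the direction and the separation are measured. As no kidney array detected miR-215, the p-value adds no support beyond its detection. Both neighbours of miR-194 thus had a lower ratio to it in kidney than in plasma.

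The seed partners parted as well. The log2 ratio of miR-215 to miR-192 was −0.098, −1.23, 0.21 and 1.47 in CI-AKI plasma and 0.61, 0.76, 0.0057 and 0.97 in control plasma. In kidney it had an upper limit of −9.25 to −9.04, so that the closest kidney and plasma pools were 7.81 apart. With kidney miR-215 at the common floor the kidney mean was −9.14 and the plasma mean 0.34. The difference was −9.48 (exact permutation test, p = 0.000155, adjusted 0.00057). Since no kidney array detected miR-215, this p-value adds no support beyond its detection. Without the plasma pool 4 arrays the differences of the 3 ratios were −4.15 (miR-192 to miR-194), −13.5 (miR-215 to miR-194) and −9.31 (miR-215 to miR-192).

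**Figure D3:**
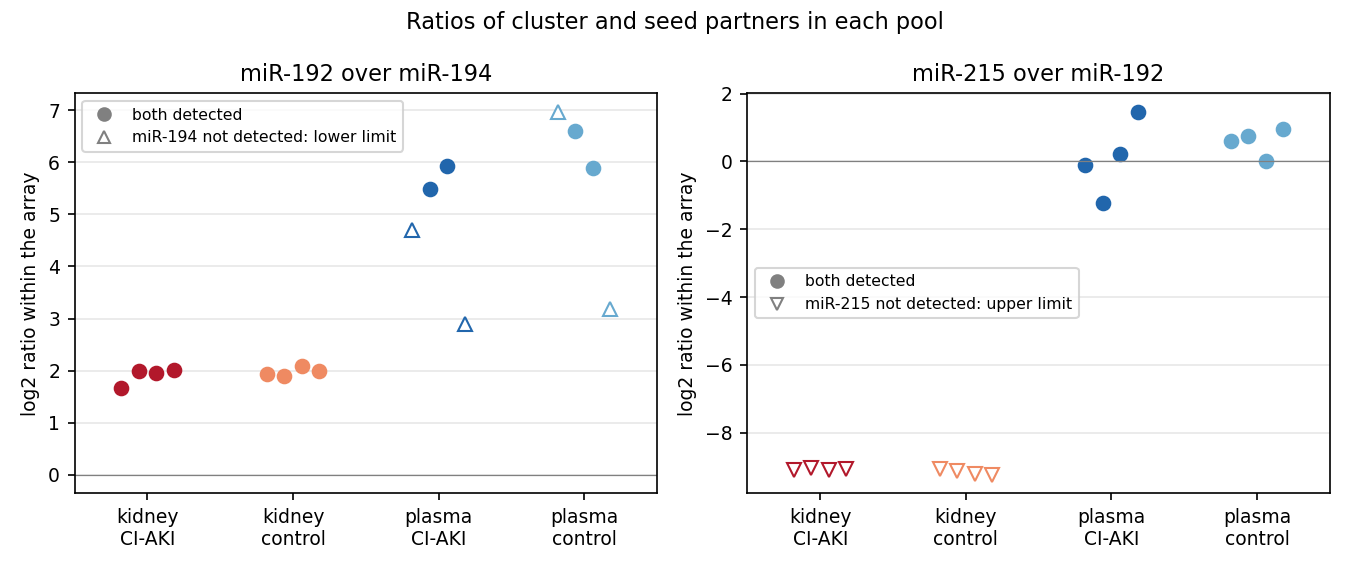
Log2 ratio of miR-192 to miR-194 (left) and of miR-215 to miR-192 (right) within each array, one point per pool, for CI-AKI kidney, control kidney, CI-AKI plasma and control plasma. Triangles are limits where one miRNA was not detected, a lower limit where they point up and an upper limit where they point down. The 8 kidney pools lie at 1.67 to 2.08 on the left and at or below −9.04 on the right, apart from every plasma pool.

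The next question was whether contrast medium changed the members within a tissue. Here each tissue was scaled over its own arrays, with the 163 kidney or 74 plasma miRNAs that all of them detected, so these values are not on the scale of the tissue comparison.

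In kidney neither member differed with treatment beyond the spread between pools. MiR-192 read 1530, 1421, 1552 and 1520.1 in CI-AKI pools 1 to 4, against 1486, 1524, 1657 and 1572 in control pools. Its means were 1506 ± 58.0 in CI-AKI and 1560 ± 73.8 in control kidney (SD, n = 4 each), and the groups overlapped. The log2 difference was −0.050 (SE 0.062, 95% interval −0.19 to 0.091, limma adjusted p = 0.917). MiR-194 read 480, 358, 399 and 374 in CI-AKI pools, against 390, 410, 391 and 397 in control pools. Pool 1 was the highest and pool 2 the lowest of all 8, both of CI-AKI, so the treated pools enclosed the control pools. The log2 difference was 0.011 (SE 0.092, 95% interval −0.20 to 0.22, limma adjusted p = 0.964), and it turned to −0.076 without CI-AKI pool 1. In the same fit 3 of 176 miRNAs passed (1.70%), and for 9 of them (5.11%) the groups did not overlap.

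The intervals bound what could have been missed in kidney. For miR-192 the pools varied little, with an SD within groups of 0.062 on the log2 scale, rank 10 from the smallest of 176 miRNAs, whose median was 0.13. MiR-194 was ordinary in this respect, at 0.13 and rank 91. MiR-215 was detected in no kidney pool of either treatment and was not tested. The log2 ratio of miR-192 to miR-194 was 1.91 ± 0.16 in CI-AKI and 1.97 ± 0.082 in control kidney (SD, n = 4 each), a difference of −0.062 (exact permutation test, p = 0.657, also adjusted 0.657).

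In plasma both members read on all arrays had lower means after contrast medium, but neither passed the test. MiR-215, the seed partner detected in plasma alone, read 96.8, 115, 219 and 381 in CI-AKI pools 1 to 4, against 365, 449, 245 and 371 in control pools. Of the CI-AKI pools, 3 lay below every control pool, and pool 4, one of the weak arrays, lay among the controls. The means were 203 ± 130 in CI-AKI and 357 ± 84.4 in control plasma (SD, n = 4 each). The log2 difference was −0.9995 (SE 0.43, 95% interval −1.96 to −0.035), the lowest of 96 miRNAs, with a limma unadjusted p = 0.0435 and adjusted p = 0.836.

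The miR-215 difference was uneven across the slide, −1.94 for the pools in slide row 1 and −0.061 for those in row 2. Without the pool 4 arrays of both groups it was −1.09 (limma adjusted p = 0.206). With 1 pool left out it ranged from −1.34 to −0.72, the latter without CI-AKI pool 1, the weakest plasma array after pool 4. With same-numbered pools as a block, the difference had a limma adjusted p = 0.319. Its sign also hangs on the sample titles. When plasma pools were instead grouped by the treatment their letter code has in kidney, the difference was 1.02. That regrouping swaps the treatment of 6 of the 8 pools, so a change of sign was largely built in.

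MiR-192 read 104, 270, 189 and 138 in CI-AKI plasma, against 238, 266, 244 and 190 in control plasma, and pool 2 of CI-AKI was the highest of all 8. The means were 175 ± 72.3 in CI-AKI and 234 ± 32.1 in control plasma (SD, n = 4 each). The log2 difference was −0.50 (SE 0.32, 95% interval −1.22 to 0.21, limma adjusted p = 0.941). It was −0.59 in row 1 and −0.42 in row 2, −0.26 without the pool 4 arrays, 0.057 with normexp and 0.27 by letter code. With 1 pool left out it ranged from −0.74 to −0.28, the latter without CI-AKI pool 1. With same-numbered pools as a block, the difference had a limma adjusted p = 0.702. No miRNA of the 96 passed (0%) in this fit, with 5 at an unadjusted p under 0.05 and 5 (5.21%) whose groups did not overlap.

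MiR-194 was detected in 2 of 4 CI-AKI and 2 of 4 control plasma pools, in pools 2 and 3 both times, and was not tested. The log2 ratio of miR-215 to miR-192 was 0.089 ± 1.11 in CI-AKI and 0.59 ± 0.41 in control plasma (SD, n = 4 each), a difference of −0.50 (exact permutation test, p = 0.429, adjusted 0.471). The treatment difference of miR-192 in kidney minus that in plasma was 0.45 (SE 0.32, limma adjusted p = 0.927), in a fit where 1 of 87 miRNAs passed (1.15%). That value was 0.21 without the pool 4 arrays and −0.11 with normexp.

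**Figure D4:**
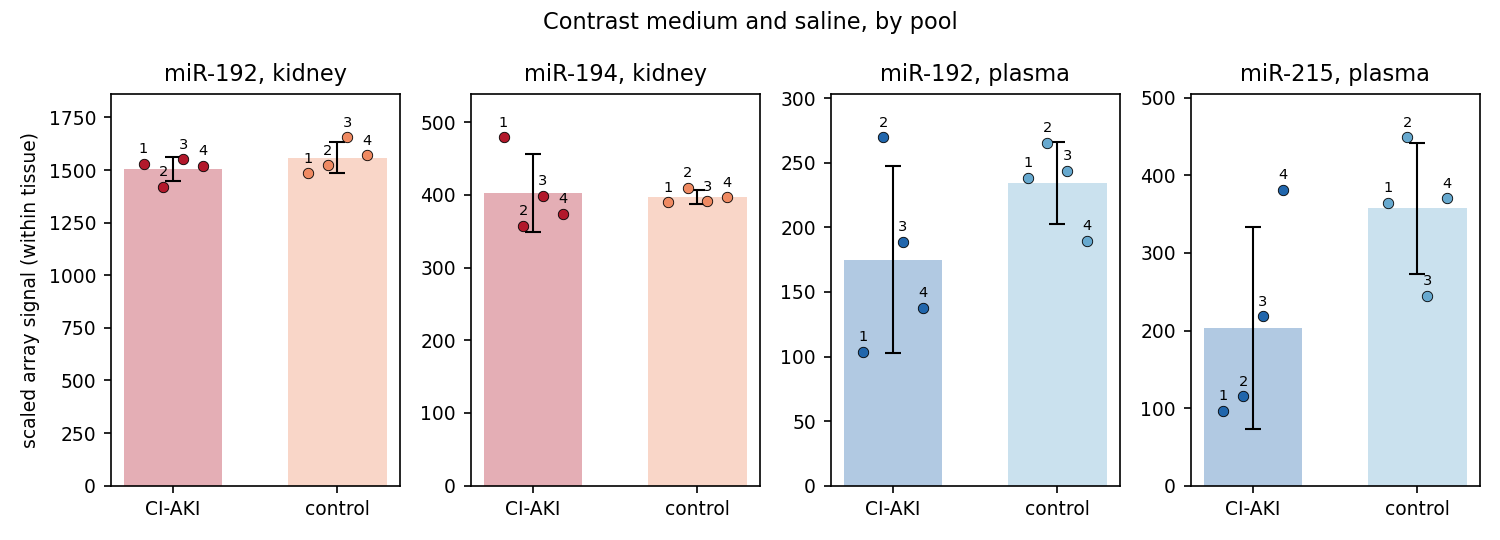
Scaled signal within each tissue for miR-192 and miR-194 in kidney and miR-192 and miR-215 in plasma, CI-AKI left and control right. Bars are means, error bars SD over 4 pools, and numbered points the pools. The kidney means are close, at 1506 and 1560 for miR-192, and in plasma 3 of 4 CI-AKI pools lie below all control pools for miR-215.

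Plasma pools also differed in the signal of miRNAs known from other tissues and from blood cells. On the scale of the tissue comparison, the liver miRNA miR-122 read 689 to 6188 in CI-AKI and 2174 to 4283 in control plasma. The summed signal of both red blood cell miRNAs on the array, miR-451 and miR-144, was 3535 to 13263 in CI-AKI and 5425 to 8938 in control plasma. For 3 leukocyte miRNAs it was 968 to 2590 in CI-AKI and 1533 to 2333 in control plasma, and for 2 platelet and myeloid miRNAs 1499 to 5371 and 3480 to 4365. For 5 muscle miRNAs it was 588 to 1126 in CI-AKI and 335 to 804 in control plasma. In both treatments 1 of 3 tested muscle miRNAs and 1 of 2 platelet and myeloid miRNAs had a higher mean in kidney than in plasma. The others of these lists that were tested had a lower one. Over all tested, 77 of 181 miRNAs had higher means in kidney in CI-AKI rats and 77 of 178 in control rats. Within plasma scaling miR-122 had a treatment difference of −0.61, which did not pass (limma adjusted p = 0.941). The part of these sources in the plasma values of miR-192 and miR-215 was not tested. In bulk kidney, fewer cells of a type and less of a miRNA per cell cannot be told apart.

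No other tested p53-responsive miRNA passed the treatment test in kidney. Of 8 on the array 6 were tested, 2 had higher and 4 lower means in CI-AKI, and 0 passed, with a median log2 difference of −0.019. Over all 176 miRNAs 106 had higher and 70 lower means, and the median was 0.028. MiR-34a, the best known p53 target among miRNAs, was at −0.15 (SE 0.12) and its relative miR-34b at −0.026 (SE 0.10). MiR-34c was detected on 6 kidney arrays and its passenger strand miR-34c* on 0, and neither was tested. In plasma 3 of the 8 were tested, all with lower means in CI-AKI, and 0 passed, with a median of −0.22. Over all 96 plasma miRNAs 57 had lower means, 0 passed and the median was −0.086.

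No kidney epithelial miRNA passed either. Of 12 on the array 11 were tested, 10 had higher means in CI-AKI kidney and 0 passed, with a median of 0.059, against 106 higher means and 3 calls among all 176 and a median of 0.028. The tubule-enriched miR-204 was at 0.043 and miR-200b, which like miR-192 acts on ZEB factors, at 0.036. In plasma 5 were tested, all of the miR-30 family, so miR-204 and miR-200b have no part in these plasma values. Of the 5, 3 had higher and 2 lower means in CI-AKI, and 0 passed. Their median was 0.32 against −0.086 over all 96, of which 39 had higher means.

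Between tissues, 6 of the 11 tested epithelial miRNAs passed as higher in kidney and 1 as lower in both treatments, with medians of 1.02 after contrast medium and 1.33 under saline. Those passing as higher included miR-200a, miR-200b, miR-200c and miR-429, which some plasma pools of each treatment did not detect. These entered the test through kidney, where they were high, so their passing is no support beyond their detection. Among all tested, 28.2% passed as higher and 46.4% as lower in CI-AKI rats (median −0.59), and 33.1% and 44.4% in control rats (median −0.40). MiR-200b, detected on 6 of 8 plasma arrays, was 5.03 higher in kidney after contrast medium and 5.64 higher under saline. MiR-204 was at 0.38 and 0.40, with neither passing (limma adjusted p = 0.370 and 0.361). Of the p53-responsive list 1 of 6 passed as higher and 3 as lower in kidney in each comparison, with medians of −0.53 after contrast medium and −0.49 under saline, near those of all tested. MiR-34a was at 0.38 after contrast medium and 1.10 under saline, and miR-34b at 0.017 and 0.38, with no call.

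From pool to pool the cluster partners were not each other's closest match. Over the 8 kidney arrays miR-192 and miR-194 had Pearson's r = 0.27 (exact permutation test, p = 0.452) and Spearman's rho = 0.52 (exact permutation test, p = 0.197). Adjusted over the 2 tissues these were 0.452 and 0.393. Without the 2 arrays farthest from the median of miR-192, r was 0.094. MiR-194 was at rank 39 of 162 miRNAs by its r with miR-192. The 3 most like miR-192 were miR-29b at 0.90, miR-29c at 0.76 and miR-146a at 0.66. MiR-29b and miR-29c share a seed and are known for lowering collagens. The 3 most like miR-194 were miR-101a at 0.896, miR-664 at 0.79 and miR-218 at 0.78.

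Over the 8 plasma arrays miR-192 and miR-215 had r = 0.32 (exact permutation test, p = 0.424, adjusted 0.452) and rho = 0.17 (exact permutation test, p = 0.703, also adjusted 0.703). Without the 2 farthest arrays r was −0.20, and without the pool 4 arrays 0.60. MiR-215 was at rank 24 of 73 by its r with miR-192. The 3 most like miR-192 in plasma were miR-30b-5p at 0.896, miR-27b at 0.87 and miR-199a-3p at 0.83, and the 3 most like miR-215 were miR-15b at 0.86, miR-23a at 0.85 and miR-26b at 0.84. Over all 16 arrays, where both tissues contribute, the 3 most like miR-192 were miR-29b at 0.88, miR-30c at 0.87 and miR-27b at 0.86. These highest values of many describe the pools, which share scaling and array strength.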

How the data were processed

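MiRNAs were measured on 16 one-colour Agilent arrays. Per the file headers, Agilent Feature Extraction 10.7.3.1 gave the intensity of each spot, and per the labels' protocols pooled RNA was labelled with Agilent's miRNA kit. A further table deposited by the authors holds log2 values and correlated with the same array's total signal at 0.916 to 0.9987. Its column medians were 1.94 to 2.22, its scale is log2 and its sign is that of signal, while its centring and normalization stay unknown, and only an alternative rests on it.

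The processed spot signal was averaged per probe without outlier-flagged spots, then per miRNA, divided by each array's 75th percentile over miRNAs detected on all arrays of the fit, floored (1.79 kidney, 0.976 plasma, 1.31 both) and logged. MiRNAs detected on all 4 arrays of a compared group were tested with limma 3.58.1 (lmFit and eBayes, R 4.3.3, two-sided, Benjamini-Hochberg over all miRNAs tested, threshold 0.05). Ratios were compared by exact permutation. Treatment ratios with a member undetected in that tissue were not computed. The files hold no mean spot signal, so the normexp alternative (offset 50) used the median signal and its background. Other alternatives were quantile, spike-in, total-signal, all-miRNA percentile and no scaling, other detection filters and floors, the brightest probe, blocks, letter codes and leaving out pools. Floors, spike-in scaling, letter codes and paired ratios were added after seeing the data. The number of pools limits the precision.

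The replicate numbers of the titles were checked for pairing. Same-numbered pools deviated together in plasma between treatments (r = 0.22 to 0.62) and in control rats between tissues (0.16 to 0.48), so these numbers were taken to pair samples from the data, not from the labels. Not all same-numbered pools deviated together in kidney between treatments (−0.100 to 0.59) or in CI-AKI rats between tissues (−0.040 to 0.37). The main tests left the pairing out, and the replicate block and paired ratios are given as alternatives. Named are the members, the 3 miRNAs most correlated with each, miR-34 family members, miR-204, miR-200b, miR-122 and both red blood cell miRNAs, the last chosen after their values were seen. The members and lists were chosen with earlier results of these data known. Python 3.11.15, pandas 2.3.3 and matplotlib 3.10.9 were used.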

Additional observations from a re-analysis of the deposited data

How the results depend on the processing

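The tissue differences of miR-215 and both of its ratios over all pools kept their direction and their call under every alternative run. Since miR-215 was detected on no kidney array, this adds no support beyond its detection. The tissue differences of miR-192 and miR-194 and their ratio kept their direction, and lost the call as follows. With normexp, miR-192 was at 0.33 in CI-AKI and 0.49 in control rats, miR-194 at 0.15 and 1.20, and the ratio of miR-192 to miR-194 at −0.27. Without scaling, miR-192 was at 2.69 in control rats. Normexp adds an offset of 50 to each spot, while the raw plasma signal was at most 18.9 for miR-194 and 18.6 to 852 for miR-192. Without scaling the weak pool 4 arrays enter as they are. No other offset was run, and the cause of the lost calls was not tested. No treatment result passed under any alternative. MiR-194 in kidney changed sign without scaling (−0.031), in the authors' values (−0.024), with the brightest probe (−0.037), by spike-in (−0.025) and by letter code (−0.054), and ranged from −0.076 to 0.065 when 1 pool was left out. By letter code, which swaps the treatment of 6 of the 8 pools of a tissue, miR-192 was at 0.026 in kidney and 0.27 in plasma. MiR-215 was then at 1.02 in plasma. With normexp miR-192 was at 0.057 in plasma and −0.11 for the difference between tissues. The cause of these changes was not tested.

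When 1 pool was left out, the kidney treatment ratio ranged from −0.099 to 0.018 (above 0 without CI-AKI pool 1), the plasma one from −0.96 to −0.059, miR-192 in kidney from −0.080 to −0.023, in plasma from −0.74 to −0.28, and miR-215 in plasma from −1.34 to −0.72. MiRNAs passing in kidney were 3, against 1 with quantile normalization, no scaling or all 4 groups in 1 fit, and 0 with normexp, with detection on every array or by letter code. For the difference between tissues 1 passed, against 0 without scaling, with normexp or with detection on every array, 2 with the total signal or without the pool 4 arrays, and 1 to 4 with 1 pool left out (4 without CI-AKI plasma pool 2). Between tissues 138 passed in control rats, against 57 without scaling, 81 with normexp and 56 with detection on every array, where 66 were tested. In CI-AKI rats 135 passed, against 82 without scaling and 70 of 84 with detection on every array. Among the members and their ratios, the replicate block changed no other call than those of the ratios within a treatment, where 4 pairs cannot pass. Over all tested miRNAs it left 132 passing between tissues in control rats and 134 in CI-AKI rats. With it miR-215 in plasma had a limma adjusted p = 0.319, and each of the 3 tissue ratios over 8 pairs an exact permutation p = 0.00781 (adjusted 0.0286), the smallest possible.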
